A study of Homo sapiens with 3 samples.

Results

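The long arm of chromosome 15 in KBM7 cells holds a stretch, from 62 to 89 Mb (hg38), in which the expected background at H3K27ac peaks was raised over its surroundings. KBM7 is a human cell line from a chronic myeloid leukaemia, known as nearly haploid except for chromosome 8 and a piece of chromosome 15, of which it keeps a further copy. The segment was taken as every H3K27ac peak whose start lies between these bounds, together with the H3K4me3 peaks and the super-enhancers of the same span. It holds 1713 of 96659 H3K27ac peaks, 595 of 36951 H3K4me3 peaks on chromosomes 1 to 22 and X, and 15 super-enhancers, against 517 elsewhere. It was set beside the rest of chromosome 15, which holds 2013 and 778 peaks and 10 super-enhancers. Copy number itself was not measured in the files used here.

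The study is about Mediator, the complex that links transcription factors to RNA polymerase II, and about which genes need it. These data are its chromatin map of the starting cells. There were 3 libraries, all of KBM7 cells grown in IMDM with 10% serum, with no treatment or genetic change named: chromatin immunoprecipitated with an antibody to H3K27ac (Abcam ab4729), chromatin immunoprecipitated with an antibody to H3K4me3 (from Millipore), and the input without antibody. Each mark therefore rests on 1 library, no difference between libraries was tested, and the intervals given cover counting error only. Read depth is not stated in the labels or files. Of the markers used to check the cell type, all 8 of the myeloid and progenitor lineage (CD33, MPO, LYZ, SPI1, CEBPA, KIT, CD34 and GATA2) carried both marks within 1 kb of a gene end. Among markers of other cell types, the T cell gene CD3E carried both, CKM of muscle carried H3K4me3 alone, and HBB, ALB and DCX carried neither.

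H3K27ac, acetylation of lysine 27 of histone H3, marks active promoters and enhancers. H3K4me3, trimethylation of lysine 4, is concentrated at the start sites of genes that are transcribed or poised to be, above all where the DNA is rich in CG dinucleotides. A super-enhancer is a run of neighbouring enhancers with a high summed signal, often close to genes that define a cell's identity. All of these are read as a count of DNA fragments over a background, so a region present in more copies in the cell has more DNA to be counted in the input as well as in the immunoprecipitate.

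Start sites with strong marks in the segment are illustrated by 300-base promoters from RefSeq (GRCh38.p14), 250 bases before the start site to 50 after it, shown 5′ to 3′. The first 3 are among the 4 start sites in the segment with the highest H3K27ac fold enrichment over the start, the next belongs to the target of the segment's best-ranked super-enhancer, and the last 2 are listed genes of other tissues whose start had no H3K27ac peak over it. Capitals mark the letters CCGGAA, the core recognised by ETS factors, or TATAAA, the TATA box, on either strand.
C15orf39, chr15:75201632-75201931, plus strand: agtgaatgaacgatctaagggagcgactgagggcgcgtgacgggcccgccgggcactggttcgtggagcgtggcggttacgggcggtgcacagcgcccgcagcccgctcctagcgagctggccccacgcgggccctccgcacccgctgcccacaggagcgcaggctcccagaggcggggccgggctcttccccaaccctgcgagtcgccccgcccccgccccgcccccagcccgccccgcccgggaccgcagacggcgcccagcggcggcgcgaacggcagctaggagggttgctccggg
PPCDC, chr15:75023340-75023639, plus strand: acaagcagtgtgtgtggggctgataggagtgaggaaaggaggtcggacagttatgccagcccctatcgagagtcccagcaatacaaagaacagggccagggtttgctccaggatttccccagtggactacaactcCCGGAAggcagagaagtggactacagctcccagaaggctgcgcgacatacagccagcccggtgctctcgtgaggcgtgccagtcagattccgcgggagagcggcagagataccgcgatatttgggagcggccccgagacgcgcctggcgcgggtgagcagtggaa
ANP32A, chr15:68820846-68821145, minus strand: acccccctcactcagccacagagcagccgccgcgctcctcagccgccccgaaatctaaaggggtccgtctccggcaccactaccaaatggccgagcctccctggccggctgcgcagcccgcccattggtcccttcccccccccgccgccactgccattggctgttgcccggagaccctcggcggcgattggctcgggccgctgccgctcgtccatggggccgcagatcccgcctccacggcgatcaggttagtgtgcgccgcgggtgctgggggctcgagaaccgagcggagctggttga
TBC1D2B, chr15:78077662-78077961, minus strand: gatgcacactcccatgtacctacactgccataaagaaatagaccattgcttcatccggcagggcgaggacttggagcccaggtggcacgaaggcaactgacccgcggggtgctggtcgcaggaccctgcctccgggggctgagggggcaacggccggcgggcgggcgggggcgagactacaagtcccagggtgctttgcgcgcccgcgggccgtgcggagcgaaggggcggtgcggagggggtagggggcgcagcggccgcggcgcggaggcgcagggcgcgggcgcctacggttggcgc
CYP1A1, chr15:74725479-74725778, minus strand: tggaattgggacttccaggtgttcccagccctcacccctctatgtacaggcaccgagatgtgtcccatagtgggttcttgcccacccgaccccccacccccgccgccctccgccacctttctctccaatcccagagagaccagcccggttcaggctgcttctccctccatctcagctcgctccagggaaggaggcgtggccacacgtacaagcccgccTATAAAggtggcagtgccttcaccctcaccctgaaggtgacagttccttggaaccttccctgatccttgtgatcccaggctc
HCN4, chr15:73368909-73369208, minus strand: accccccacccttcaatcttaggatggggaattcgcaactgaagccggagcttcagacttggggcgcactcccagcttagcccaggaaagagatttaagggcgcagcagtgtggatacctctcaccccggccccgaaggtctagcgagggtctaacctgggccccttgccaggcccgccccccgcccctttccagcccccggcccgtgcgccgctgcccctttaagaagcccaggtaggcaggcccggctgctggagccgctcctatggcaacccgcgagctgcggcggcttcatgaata
The ETS core stands once in the promoter of PPCDC, which encodes an enzyme of coenzyme A synthesis. C15orf39 has no match to either motif but has 40 CG dinucleotides in its 300 bases. CYP1A1, a cytochrome P450 induced by aryl hydrocarbons, has a TATA box and 10 CG dinucleotides. Its start lay under an H3K4me3 peak (fold 27.8), with an H3K27ac peak of fold 4.32 within 1 kb of it. HCN4, the pacemaker channel of the heart, has 19 CG dinucleotides, and neither mark lay within 1 kb of it.

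Across the segment, promoters of protein-coding genes with both marks over the start differed in base composition from promoters with neither. The 168 promoters of 137 genes with both marks held a median of 29 CG dinucleotides, against 6 in the 74 promoters of 55 genes with neither mark within 1 kb. The median was 21 over the 22156 promoters of protein-coding genes in the table and 14 over all 35116, non-coding genes included. The ETS core was present in 38.7% of the promoters with both marks (95% Wilson interval 31.7 to 46.2), in 4.05% of those with neither (1.39 to 11.3), in 21.2% of the promoters of protein-coding genes and in 17.2% of all promoters. For the GC box, GGGCGG or CCGCCC, the shares in these 4 sets were 76.2%, 40.5%, 56.3% and 45.0%. The TATA box went the other way, with 2.38%, 12.2%, 9.46% and 11.5%. The CCAAT box, CCAAT or ATTGG, was at 28.6%, 25.7%, 34.6% and 34.6%. These are letter matches in short windows. Some windows overlap or belong to the same gene, so the intervals, which treat them as independent, are too narrow. The median GC content was 68.2%, 57.3%, 62.3% and 58.7%, and its part in the motif shares was not tested.

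The segment was chosen on its background, which is given here as a description. The expected background, recovered from the fold and p-value deposited for each peak, is the number of fragments the peak caller expected at the summit. Its median over H3K27ac peaks was 6.75 fragments in the segment and 3.63 in the rest of chromosome 15, a ratio of 1.86. In bins of 1 Mb with at least 5 peaks, the 24 bins of the segment had medians of 5.73 to 7.93, the 31 bins below it 2.80 to 4.66 and the 9 bins past 90 Mb 3.12 to 4.22. The bin from 89 to 90 Mb lay between these ranges at 5.31. No bin of the segment overlapped the bins below it or those past 90 Mb.

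**Figure D1:**
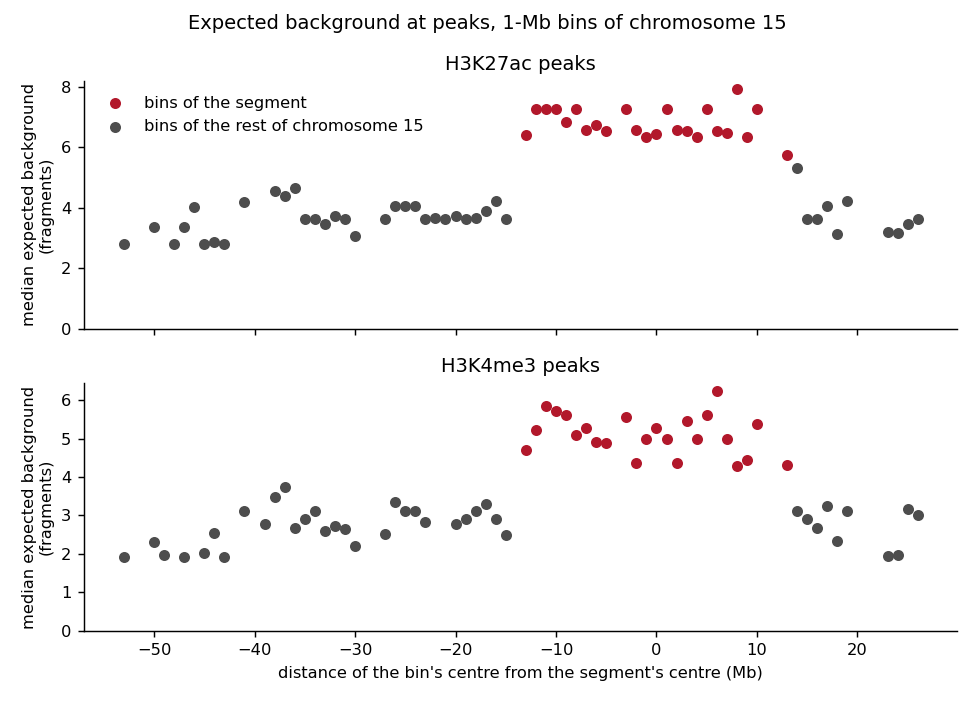
Median expected background at H3K27ac peaks (upper panel) and H3K4me3 peaks (lower panel), in fragments, for each 1-Mb bin of chromosome 15 with at least 5 peaks, against the distance of the bin's centre from the segment's centre in Mb. Bins of the segment (red) lie at 5.73 to 7.93 and 4.29 to 6.23, and bins of the rest of the chromosome (grey) at 2.80 to 5.31 and 1.92 to 3.74.

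H3K4me3 peaks showed the same step, at 4.29 to 6.23 in the segment, against 1.92 to 3.74 below it and 1.93 to 3.24 above it. The medians over all peaks were 5.13 and 2.78, a ratio of 1.85. This is not a separate measurement. At 3688 places in the genome where summits of both marks lay within 10 bp, the background of H3K27ac was within 1% of 1.46 times that of H3K4me3 in 81.3% of cases, and in 79.1% of the 67 such places in the segment. The 2 backgrounds thus move together over the same positions, and no label or header says whether both were taken from the input.

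The lower bound falls in a stretch with few peaks, and the upper bound falls inside the raised zone. Before 62 Mb the nearest peaks were a pair of weak ones at 61830839 to 61831027 (background 4.62) and 61831299 to 61831494 (6.35), and the next lay at 60477211 to 60480400. The first peaks inside started at 62047530 (8.16) and 62050101 (6.35). At the upper end the last peak inside, at MFGE8, covered 88912224 to 88914184 with a background of 6.24, and the first outside, at 89001717 and 89002451, had 7.25 and 7.59. The first 250 kb past 89 Mb held 34 H3K27ac peaks with a median of 7.25, and the next 250 kb 14 peaks with 3.84. For H3K4me3 those 2 windows had 5.58 and 2.78.

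Peaks were denser in the segment, and stood on more fragments but a lower ratio. H3K27ac peaks numbered 63.4 per Mb in the segment (60.5 to 66.5) and 38.5 per Mb in the rest of chromosome 15 (36.8 to 40.2), a ratio of 1.65 (1.55 to 1.76). They covered 1429 kb, or 5.29% of the segment, and 1717 kb, or 3.28% of the rest. H3K4me3 peaks numbered 22 and 14.9 per Mb, a ratio of 1.48 (1.33 to 1.65). The segment is also richer in genes, with 8.81 protein-coding genes per Mb against 7.25 in the rest. Per protein-coding gene there were 7.20 H3K27ac peaks in the segment and 5.31 in the rest, and 2.50 and 2.05 H3K4me3 peaks. Part of these differences rests on the proximal part of the chromosome. Against the rest past 35 Mb the ratio of H3K27ac peaks per Mb was 1.49 (1.39 to 1.59). There the rest had 6.16 H3K27ac and 2.31 H3K4me3 peaks per gene. Against chromosomes other than 8 and 15 the ratio was 1.94. In the top 50% of each list by fold it was 1.20 within chromosome 15.

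**Figure D2:**
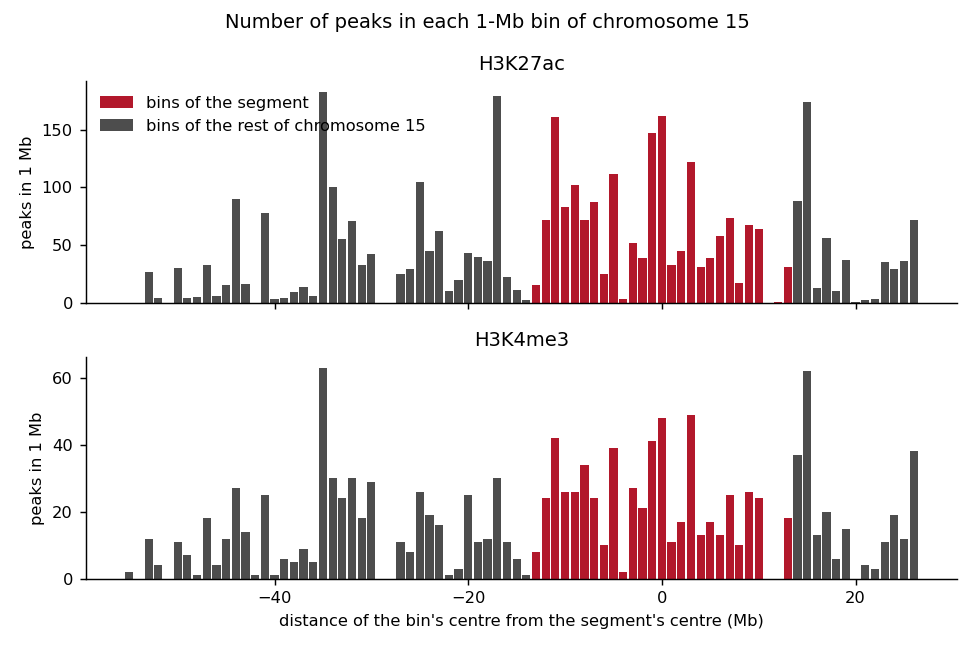
Number of H3K27ac peaks (upper panel) and H3K4me3 peaks (lower panel) in each 1-Mb bin of chromosome 15, against the distance of the bin's centre from the segment's centre in Mb. Bins of the segment (red) hold up to 162 and 49 peaks, and the highest bins of the rest (grey) 183 and 63.

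Within the segment the peaks were unevenly spread. The bin from 75 to 76 Mb held 162 H3K27ac peaks and 48 H3K4me3 peaks over 17 protein-coding genes, among them PPCDC, C15orf39, SIN3A and PTPN9. The bin from 64 to 65 Mb held 161 and 42, and 13 of its 14 genes carried both marks. At the other end, 86 to 87 Mb held no peak of either mark and 87 to 88 Mb held 1 H3K27ac peak. These bins hold AGBL1, a carboxypeptidase gene without either mark, and NTRK3, a neurotrophin receptor gene of neurons. The densest bins of the rest of the chromosome, with up to 183 and 63 peaks, were higher than any in the segment.

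Summit counts and folds come from the same peaks as the background and are likewise descriptions. At the summit of the median H3K27ac peak there were 28 fragments in the segment and 20 in the rest of chromosome 15, a ratio of 1.40 (1.29 to 1.45). The median fold enrichment, summit over background with 1 added to each, was 3.74 in the segment and 4.47 in the rest, a ratio of 0.837 (0.804 to 0.880). The 5th percentile of the summits was 17.6 and 12 fragments, and the 95th 200.4 and 138. Widths were close, with medians of 425 and 398 bp and a ratio of 1.07 (0.971 to 1.18). For H3K4me3 the summits had medians of 47 and 36 fragments (ratio 1.31, 0.976 to 1.64) and the folds 7.59 and 9.45 (ratio 0.803, 0.596 to 1.07), so both intervals included 1. In the top 50% of the H3K27ac list by fold the direction of the fold turned, with a ratio of 1.12 (0.960 to 1.26), an interval that also includes 1.

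**Figure D3:**
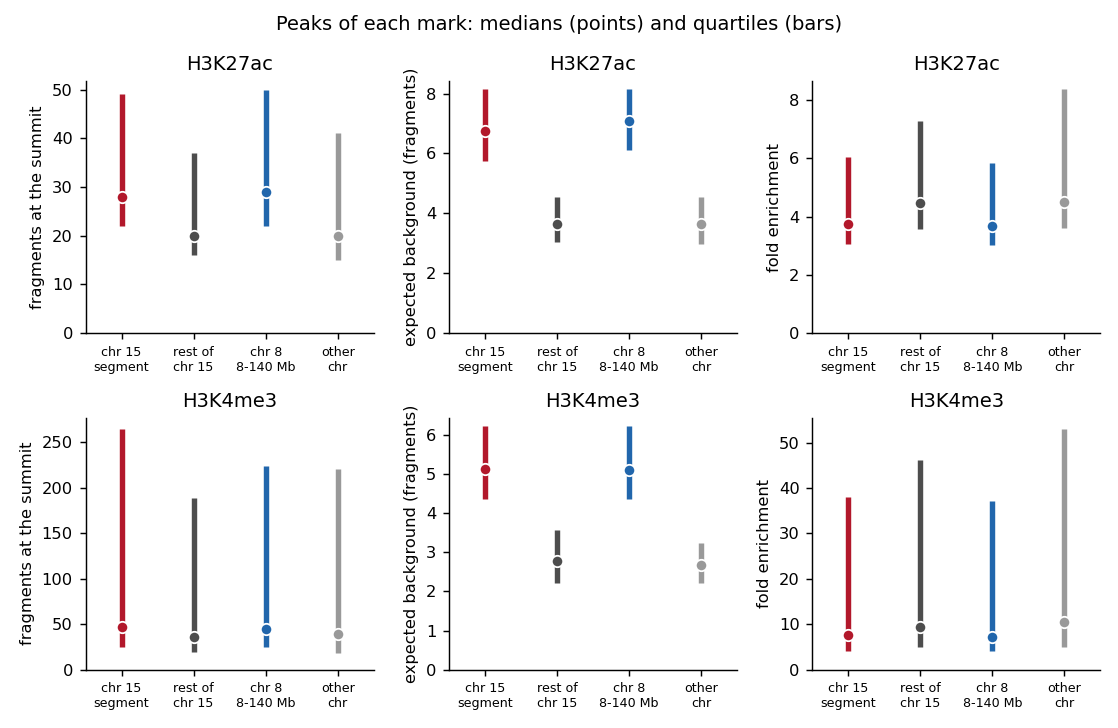
Fragments at the summit, expected background in fragments, and fold enrichment for H3K27ac peaks (upper row) and H3K4me3 peaks (lower row) in the chromosome 15 segment, the rest of chromosome 15, chromosome 8 from 8 to 140 Mb and the other chromosomes. Points are medians and bars run from the lower to the upper quartile; for H3K27ac the segment stands at 28 fragments, 6.75 and 3.74, against 20, 3.63 and 4.47 in the rest of chromosome 15.

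The stretch of chromosome 8 from 8 to 140 Mb, likewise raised in background, had medians near those of the segment. Its H3K27ac peaks had medians of 29 fragments, a background of 7.08 and a fold of 3.68, and those of the remaining chromosomes 20 fragments, 3.63 and 4.52. Peak density differed. The segment had 63.4 H3K27ac peaks per Mb, 8.81 protein-coding genes per Mb and 7.20 such peaks per gene. The stretch of chromosome 8 had 27.2, 4.08 and 6.66. Peaks at gene ends differed too. Within 1 kb of a gene end lay 16.2% of the segment's H3K27ac peaks and 12.3% of those of chromosome 8. Their median summits held 115 and 142 fragments. Both stretches were picked for their background, and no test of their likeness was made.

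Many of the tallest H3K27ac summits of the whole list, and most of the tallest of H3K4me3, lay on these stretches, while the highest folds did not. Of the 100 H3K27ac peaks with most fragments, 19 lay in the segment, which holds 1.77% of the list, 42 on chromosome 8 from 8 to 140 Mb, 0 in the rest of chromosome 15 and 34 on chromosomes other than 8 and 15, which hold 91.9% of the list. The stretch of chromosome 8 holds 3.71% of that list. For H3K4me3 the counts in the same order were 37, 52, 1 and 0. The segment holds 1.61% of the H3K4me3 list, and the stretch of chromosome 8 holds 3.46%. The remaining peaks of each top 100 lay on chromosome 8 outside that stretch. The tallest H3K27ac summit of the whole list, with 307 fragments, was at ANP32A, a nuclear phosphoprotein gene, and the tallest of H3K4me3, with 345, at NPTN, which encodes the cell adhesion molecule neuroplastin. Ranked by fold, the segment held 0 of the top 100 of either mark, and its best peaks stood at rank 1387 of H3K27ac and 3025 of H3K4me3.

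Overlap of the 2 marks was close to that of the whole list for H3K4me3 peaks and somewhat lower for H3K27ac peaks. Of the H3K27ac peaks 546 overlapped H3K4me3 by at least 1 bp (31.9%, 29.7 to 34.1), against 691 in the rest of the chromosome (34.3%, 32.3 to 36.4) and 36.0% of the whole list. Of the H3K4me3 peaks 505 overlapped H3K27ac (84.9%), against 641 in the rest (82.4%) and 83.8% of the whole list. Split by fold into quartiles, the segment's H3K27ac peaks met H3K4me3 in 8.16% of cases in the lowest and 80.4% in the highest. In the rest of the chromosome those shares were 11.1% and 87.3%.

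Some strong peaks carried a single mark. The strongest H3K27ac peak without H3K4me3, at 63447391 to 63449366, lies 56.0 kb from USP3, a gene for a ubiquitin protease that acts on histones, and had 116 fragments at its summit (fold 15.9). The strongest H3K4me3 peaks without H3K27ac were at SH3GL3 (fold 51.4) and CORO2B (47.5), which encode a membrane-bending endophilin and an actin-binding coronin, at CELF6, an RNA-binding protein gene (49.4), and beside SKOR1, a corepressor of the nervous system (47.7). These 4 H3K4me3 peaks were 1532 to 2122 bp wide with 217 to 260 fragments at the summit.

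Peaks at gene ends, which include the start sites, were the strong ones. Within 1 kb of either end of a protein-coding gene lay 277 H3K27ac peaks of the segment (16.2%, 14.5 to 18.0), against 320 in the rest (15.9%) and 18.9% of the whole list. Their median summit held 115 fragments in the segment and 84 in the rest, and their median fold was 13.8 and 16.2. Away from gene ends the medians were 26 and 19 fragments. H3K4me3 was present at 208 of the 277 (75.1%) and 270 of the 320 (84.4%). Of the H3K4me3 peaks 178 lay at gene ends (29.9%), against 241 in the rest (31.0%) and 36.3% of the whole list, with median summits of 309 and 246 fragments. Inside genes but away from their ends lay 824 H3K27ac peaks of the segment (48.1%) and between genes 612 (35.7%), against 1080 (53.7%) and 613 (30.5%) in the rest.

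Of the 238 protein-coding genes of the segment, 160 carried both marks at an end (67.2%, 61 to 72.9). The share with both was 60.2% in the rest of the chromosome (228 of 379) and 60.4% over all protein-coding genes. H3K4me3 alone was found at 22 genes (9.24%, against 6.35% of all genes), H3K27ac alone at 11 (4.62%, against 2.84%) and neither at 45 (18.9%, against 30.4%). Past 35 Mb, which leaves out the proximal part of the chromosome, the share with both was 70.8% in the rest (196 of 277), above the segment, so the direction depends on that part. At genes with both marks the median H3K27ac summit held 190 fragments in the segment (quartiles 123 and 223) and 121.5 in the rest (87 and 155), a ratio of 1.56. For H3K4me3 the medians were 314.5 fragments (297 and 326) and 256 (228 and 273), a ratio of 1.23. The folds were lower in the segment, at 20.0 against 22.9 for H3K27ac and 48.3 against 64.3 for H3K4me3.

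**Figure D4:**
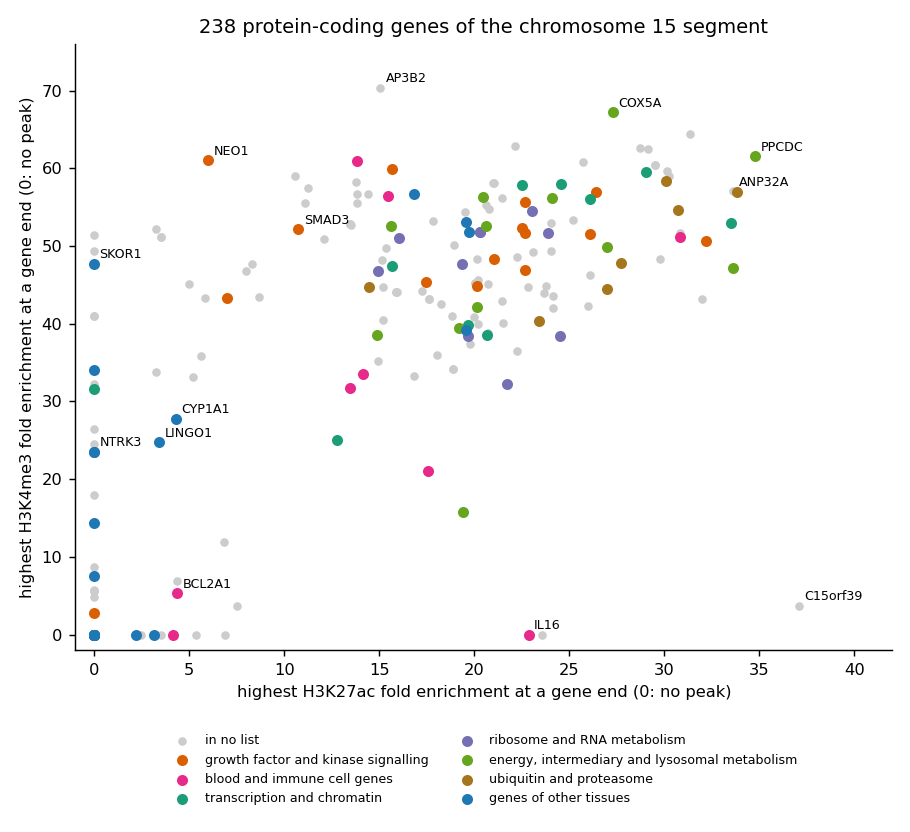
Highest H3K27ac fold enrichment (horizontal axis) against highest H3K4me3 fold enrichment (vertical axis) within 1 kb of either end of each of the 238 protein-coding genes of the segment, with 0 where there was no peak; colours show 7 gene lists. The 160 genes with both marks have medians of 20.0 and 48.3, and genes of other tissues (blue) are spread along the left edge as well.

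Genes of growth factor and kinase signalling carried both marks in 14 of 15 cases, against 60.4% of all protein-coding genes and 67.2% of those of the segment. This list and those below were chosen with earlier results of these data known, so nothing is drawn from such comparisons. Of the 152 genes of the segment in no list 95 carried both. CSK, the kinase that restrains SRC family kinases, stood out in width: its H3K27ac interval ran for 23026 bp (74772741 to 74795766), the widest of the segment and 8th in the whole list, with 297 fragments at the summit. Its folds were 32.2 for H3K27ac and 50.6 for H3K4me3, and further pairs of folds name the marks in that order. MAP2K1 and MAP2K5, kinases of the ERK pathways, had folds of 21.0 and 48.3 and of 26.4 and 57.0. The SMAD genes of the TGF-beta and BMP pathways differed: SMAD6, an inhibitor, had 186 fragments of H3K27ac (fold 22.7) and SMAD3, an effector, 84 (fold 10.7), with H3K4me3 folds of 46.9 and 52.2. NEO1, a netrin receptor gene, paired strong H3K4me3 (318 fragments, fold 61) with weak H3K27ac (42 fragments, fold 6.01). RASGRF1, a RAS exchange factor of neurons, had at its ends only an H3K4me3 peak of fold 2.84, although 31 H3K27ac peaks lay along the gene.

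Of 9 genes of blood and immune cells 7 carried both marks and the other 2 H3K27ac only, against 60.4% and 2.84% of all protein-coding genes. With 9 genes, 7 is near that share. PML, the organiser of nuclear bodies that is fused to RARA in promyelocytic leukaemia, had 269 fragments of H3K27ac (fold 30.8) and 323 of H3K4me3 (fold 51.2). PSTPIP1, a cytoskeletal adaptor of leukocytes, had folds of 17.6 and 21.1, and CTSH, a lysosomal protease, 13.4 and 31.8. SEMA7A, a membrane-anchored semaphorin, had 14.1 and 33.5. BCL2A1, a survival gene of the BCL2 family, had the weakest pair, with 47 and 34 fragments (folds 4.37 and 5.34). IL16, a T cell chemoattractant, and ISG20, an interferon-induced nuclease, lacked H3K4me3 at the ends of their gene records. At the RefSeq start sites by strand both carried it, with folds of 14.8 and 18.6 at IL16 and 10.2 and 14.4 at ISG20.

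The lists of general cell functions were likewise chosen with earlier results known. Their genes carried both marks with few exceptions, beside 60.4% of all protein-coding genes and 67.2% of those of the segment. All 10 genes of the ribosome and RNA metabolism did, with H3K27ac folds of 14.9 (EDC3, a decapping enhancer) to 24.5 (SNUPN, an import adaptor for small nuclear RNPs). The ribosomal protein genes RPL4 and RPLP1 had 237 and 204 fragments of H3K27ac and 339 and 326 of H3K4me3. All 12 metabolic genes carried both, from PKM, the pyruvate kinase gene, whose H3K4me3 interval of 6122 bp was the third widest of the segment, to COX5A, a subunit of cytochrome c oxidase, with folds of 27.3 and 67.2. So did 9 of 10 genes of transcription and chromatin, such as PIAS1 (29.0 and 59.5), a SUMO ligase, and SIN3A (26.1 and 56.1), the scaffold of a histone deacetylase complex. ARNT2, a partner of bHLH-PAS factors mainly of the nervous system, had H3K4me3 only (31.7). In the ubiquitin list 7 of 8 did, and the exception, the protease gene SENP8, carried both by its start site (25.2 and 53.3).

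Of 22 genes of nerve, heart, eye, cartilage, steroid-forming and other tissues 6 carried both marks, against 60.4% of all genes. A further 6 had H3K4me3 only, 2 H3K27ac only and 8 neither. The nicotinic receptor cluster showed 3 of the 4 states side by side: CHRNA5 carried both (19.5 and 53.1), CHRNA3 had H3K4me3 only (34.0) and CHRNB4 neither at its ends, though a start-site record of CHRNB4 lay under H3K4me3 (30.1). CHRNA5 lies next to PSMA4, a proteasome gene with both marks (27.7 and 47.8). Others with both were ISL2, LOXL1, ADAMTS7, LINGO1 and CYP1A1. By RefSeq start sites LINGO1 had H3K4me3 only (24.8), and 4 of the 21 genes with a start site in the table carried both. NTRK3 and CEMIP had H3K4me3 only, each at a fold of 23.5, and SKOR1, ITGA11 and CRABP1 at 47.7, 14.4 and 7.60. HCN4, ACAN of cartilage, STRA6 and CYP11A1, the first enzyme of steroid synthesis, had neither.

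At the peaks of highest fold some genes combined a broad domain with a tall summit. ANP32A had 307 fragments of H3K27ac over 6614 bp and 341 of H3K4me3 over 7530 bp, the widest H3K4me3 interval of the segment. C15orf39, which encodes a little-studied protein, had the highest H3K27ac fold (37.1, 275 fragments), and at its RefSeq start an H3K4me3 fold of 61.5. The highest H3K4me3 fold, 75.5, was not at a protein-coding gene. It lay at 75737202 to 75739297, over the transcribed pseudogene DNM1P35 and 10703 bp from CIMAP1C, with 321 fragments, and an H3K27ac peak of fold 25.5 covered the same place. AP3B2, an adaptor subunit of neuronal vesicles, came next at 70.4 with an H3K27ac fold of 15.1, and its interval also overlaps the pseudogene LOC338963. Another pseudogene site, over SCAND2P at 84630386 to 84636264, had an H3K4me3 interval of 5879 bp (fold 59.9) and an H3K27ac fold of 29.4.

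Non-coding genes of the segment carried the marks less often, as over the whole annotation. Of 192 long non-coding RNA genes 46 had both marks (24.0%), against 82 of 439 in the rest of the chromosome (18.7%) and 21.5% overall. Past 35 Mb the share in the rest was 25.6% (71 of 277), above the segment, so this direction too depends on the proximal part. Some of these share a start region with a protein-coding gene, as MAP2K5-DT does with MAP2K5. All 7 genes of the GOLGA6 family had neither mark, and since they are near-identical copies, that is uncertain. Of 27 microRNA hairpins matched in RefSeq 5 had both marks within 1 kb (18.5%, 8.18 to 36.7), MIR4312 had H3K27ac only and 21 had neither. Both marks lay within 1 kb of 252 of the 1558 hairpins of the whole table (16.2%), a share inside that interval. Mature sequences of 4 of the 5 hairpins of the segment with both marks are shown as examples, with the seed, bases 2 to 8, in capitals.
hsa-miR-4513: aGACUGACggcuggaggcccau
hsa-miR-4515: aGGACUGGacucccggcagccc
hsa-miR-7706: uGAAGCGCcugugcucugccgaga
hsa-miR-7-2-3p: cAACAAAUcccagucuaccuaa
The 6 mature sequences listed for these 5 hairpins, which need not be all of theirs, have 6 different seeds. MIR4513 lies inside the wide H3K27ac interval at CSK. MIR4515 lay under an H3K27ac peak of fold 30.8 and 3739 bp, and MIR7706 under the one at the start of AKAP13, an anchoring protein gene (fold 15.7). Near MIR7-2, a source of the miR-7 family of which only the 3p arm is shown, the folds were 3.24 and 3.89. Fold at a hairpin does not show that it is transcribed from there.

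Super-enhancers were dense in the segment, and their input signal was raised. There were 15, or 5.56 per 10 Mb, against 10 in the rest of chromosome 15, or 1.91 per 10 Mb, a ratio of 2.91 (1.22 to 7.23). Chromosome 8 from 8 to 140 Mb had 2.5 per 10 Mb, and the chromosomes other than 8 and 15 had 1.72. The authors ranked these regions by the difference of H3K27ac and input signal, and the segment was chosen on its background. This density is therefore a description and may not be separate from that choice. The super-enhancers covered 787 kb (2.91%) in the segment and 571 kb (1.09%) in the rest. Of the segment's H3K27ac peaks 375 lay in them (21.9%, 20.0 to 23.9), against 291 in the rest (14.5%, 13.0 to 16.1) and 12.7% of the whole list. Of the H3K4me3 peaks 99 did (16.6%), against 81 in the rest (10.4%) and 9.79% of the whole list.

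The input signal per base, in the units of the authors' deposited table, had a median of 0.192 over the 15 regions of the segment (0.164 to 0.225) and 0.102 over the 10 of the rest (0.0863 to 0.121). The ranges did not overlap and the medians had a ratio of 1.89. The segment was chosen on a background that may itself have been taken from the input. This difference is therefore a description and may not be a separate measurement. The H3K27ac signal per base, from the same table, was 0.892 (0.655 to 1.65) and 0.798 (0.578 to 1.29), with overlapping ranges and a ratio of 1.12. H3K27ac over input had a median of 4.87 (3.61 to 7.35) in the segment and 7.99 (4.79 to 14.9) in the rest. Over the 33 regions of chromosome 8 from 8 to 140 Mb the medians were 0.199, 0.953 and 5.26, and over the 468 of other chromosomes 0.097, 0.805 and 8.36.

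**Figure D5:**
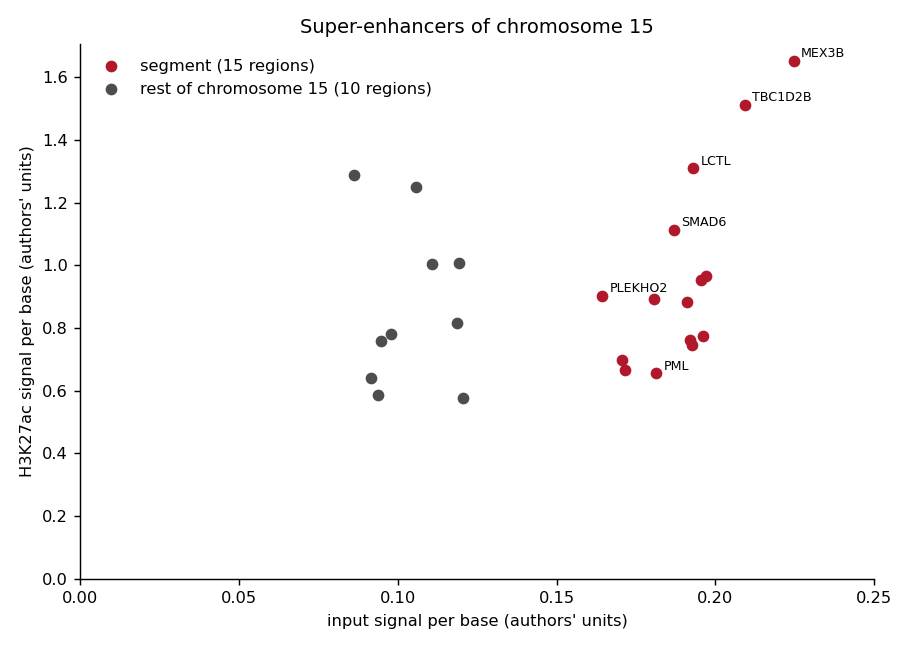
H3K27ac signal per base (vertical axis) against input signal per base (horizontal axis), in the authors' units, for the 25 super-enhancers of chromosome 15. The 15 regions of the segment (red) lie at an input of 0.164 to 0.225, all to the right of the 10 of the rest (grey) at 0.0863 to 0.121, while their H3K27ac values overlap. The segment was chosen on a background that may have been taken from the input.

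The rank of these regions depended on how the input was taken into account. The authors' deposited table ranks by the difference of H3K27ac and input, and places the 15 at 21 to 498, with 5 among the first 100, against 2 of the 10 in the rest. Ranked by the ratio of H3K27ac to input computed from that table, the 15 stood at 326 to 529, with a median of 496, and the 10 of the rest at 15 to 501, with a median of 278. The best by difference, at TBC1D2B (rank 21 in the authors' deposited table), was 336th by ratio, and the one at PML (rank 241 there) was 529th.

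Of the 15 target genes that the authors' deposited table assigns, 14 carried both marks at an end, against 67.2% of the segment's protein-coding genes and 60.4% of all, and 8 were overlapped by their region. By its title, that table chose targets by closeness and expression. A high share with both marks was thus favoured in advance, and nothing is drawn from the comparison. The region of TBC1D2B, a regulator of RAB GTPases, spans 67.0 kb (78017831 to 78084802), holds 21 H3K27ac and 15 H3K4me3 peaks, and is 73.6% covered by H3K27ac. The highest signals per base were at the region assigned to MEX3B, an RNA-binding protein gene (1.65 for H3K27ac and 0.225 for input, from the authors' deposited table), 88.7 kb from that gene. The longest, 112.5 kb, is assigned to TLE3, a Groucho corepressor gene 327 kb away, and holds 60 H3K27ac peaks.

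Several regions lie over genes other than the assigned one. The region given to TLNRD1, 260 kb away, lies over IL16 and STARD5, and that of CTSH, 31.4 kb away, over RASGRF1. The region given to LCTL lies 37.9 kb from that gene, which had neither mark, and holds the second widest H3K27ac interval of the segment, 10669 bp over the long non-coding RNA gene LINC01169 (fold 28.3). The region at SMAD6, 20.9 kb long, had the highest H3K4me3 coverage, 28.0% of its length, and the median over the 15 was 12.5%, against 9.37% in the rest of the chromosome. H3K27ac covered a median of 46.2% of the 15 regions, against 64.9% in the rest.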

How the data were processed

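Chromatin immunoprecipitation followed by sequencing was done on KBM7 cells, with 1 library each for H3K27ac, H3K4me3 and input. Per the submitters' processing notes, the genome build is hg38 and the tools include Bowtie2 2.3.4 and bedtools 2.20.1. Peak caller, settings and depth were not given in the sources used here. For each mark the authors deposited a list of peaks with a score, a fold enrichment over background (a ratio), and −log10 p and −log10 q values per peak, of which the lowest −log10 q was 1.32 for H3K27ac and 1.33 for H3K4me3. The authors' deposited table of super-enhancers gives the H3K27ac and input signal of each region, their difference, a rank and a target gene, and regions, rank and targets are the authors' own. The signal's scale is not stated.

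From the fold and the p-value the whole-number fragment count at each summit and the expected background were recovered, taking fold as (count + 1)/(background + 1) and p as an upper Poisson tail. All peaks (100%) gave a whole number, to within 0.01 in −log10 p, and the method was tested on simulated data. Peaks were placed in the segment by their start, and the rest of chromosome 15 was measured from its first to its last H3K27ac peak. Overlap meant at least 1 bp. Gene ends were both ends of RefSeq protein-coding records within 1 kb, and start sites by strand, known for 540 of 617 genes on chromosome 15 (87.5%), were an alternative. Sequences are from RefSeq, GRCh38.p14. Shares have 95% Wilson intervals, rates exact Poisson and conditional intervals, and medians order-statistic intervals, which cover counting error only. With 1 library per mark no test was made.

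The segment, its bounds and the gene lists were chosen with earlier results of these data known. Named genes are those of 7 lists (86 genes, all of them in the segment), the super-enhancer targets, the 10 peaks of highest fold and the 5 widest of each mark, and genes next to a bound; others, such as NPTN, SH3GL3, CELF6, CORO2B and the pseudogenes, were named after their values were seen. Some items of these lists are not reported here. Alternatives were wider and narrower bounds, stricter peak lists, other parts of the genome to compare with, a stricter overlap, a window of 500 bp and start sites by strand. Python 3.11.15, numpy 2.4.6, pandas 2.3.3, scipy 1.17.1 and matplotlib 3.10.9 were used.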

Additional observations from a re-analysis of the deposited data

How the results depend on the processing

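With bounds of 61 to 90 Mb or 63 to 88 Mb no value moved by more than its interval, nor did any without 61 to 62 and 89 to 90 Mb in the rest of the chromosome, an alternative chosen after seeing the data. In the top 50% of each list by fold, the ratio of median H3K27ac folds, segment over rest of chromosome 15, turned to 1.12 (reported as 0.837), and the H3K27ac ratios were 1.20 for peaks per Mb, 2 for background, 1.89 for summit and 1.32 for width, with 66.5% of segment peaks over H3K4me3 and 32.4% at gene ends. The fewer, stronger peaks left by this choice are themselves picked by fold. For H3K4me3 under the same choice, peaks per Mb had a ratio of 1.30 and 63.2% lay at gene ends. With −log10 q of at least 5 the H3K27ac fold ratio was 0.796, the share over H3K4me3 42.5% and the share at gene ends 20.6%. Peaks per Mb of H3K27ac had a ratio of 1.49 against the rest past 35 Mb and 1.94 against chromosomes other than 8 and 15, where H3K4me3 had 1.76. With an overlap of at least 50% of the peak the shares were 23.5% for H3K27ac and 80.5% for H3K4me3. The share of H3K27ac peaks at gene ends was 13.8% with 500 bp and 12.6% by start site. Of the alternative values 89 moved by less than their interval, 18 moved further and 1 reversed. By start sites 150 of 216 genes carried both marks, against 145 of them by gene ends; the cause of these differences was not tested. No paired analysis was possible because each mark has 1 library. Copy number and the depth of the input library were not measured, and input signal was at hand only over super-enhancers. More copies and a locally higher background therefore cannot be told apart.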
